A study of Mus musculus with 4 samples.

Results

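The genes described here encode Polycomb group proteins and HP1 proteins of mouse chromatin. Members were taken by gene symbol from the count table: Ezh2, Ezh1, Eed and Suz12 of Polycomb repressive complex 2 (PRC2), Bmi1, Cbx7 and Cbx8 of Polycomb repressive complex 1 (PRC1), and Cbx1, Cbx3 and Cbx5 of the HP1 family. All 10 were among the 24421 symbols in the table, and all 10 had enough reads to be tested. RNA was sequenced from LSK cells of bone marrow, which are negative for lineage markers and positive for c-Kit and Sca-1, a fraction that holds blood stem cells and multipotent progenitors. There were 2 libraries from Zfp521-/- mice (KO) and 2 from Ctrl littermates, labelled wild type (WT). The labels name no other allele, agent or age, and they do not say what cells or animals each pool held. The labels name no Cre or transgene that would limit the knockout to blood cells. The p-values reflect how these samples vary, and part of that spread may be technical.

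PRC2 places methyl groups on lysine 27 of histone H3, and its catalytic subunit is either Ezh2, which is abundant in dividing cells, or Ezh1, which is retained in resting cells. Eed binds the finished mark and, with Suz12, is needed for the enzyme to work. In canonical PRC1 a Cbx protein binds that mark, and Bmi1 (Pcgf4) partners the ubiquitin ligase subunits Ring1 and Rnf2. HP1 proteins bind methylated lysine 9 of histone H3 in compact chromatin: Cbx5 is HP1 alpha, Cbx1 is HP1 beta and Cbx3 is HP1 gamma. In blood stem cells Bmi1 and Cbx7 are known for sustaining self-renewal.

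The libraries held between 17787425 and 22000036 counts in KO and between 25813391 and 29863594 counts in WT, and a floor of 3 counts lay between 0.108 and 0.152 CPM (counts scaled to library size with TMM factors), which covers counting error only. Zfp521 was lower in KO, at 13.9 and 10.9 CPM in the KO libraries, against 56.1 and 57.5 CPM in the WT libraries. Kit was at 697 and 702 CPM in KO and at 617 and 708 CPM in WT, and Ly6a, which encodes Sca-1, at 37.3 and 67.0 CPM in KO and at 47.7 and 36.9 CPM in WT, so the transcripts behind the sort gate were present in every library. WT replicate 2 stood apart, with 5606 counts over 4 Y-linked genes against 9 to 14 in the other libraries. It had 606 Xist counts, against 160613 to 230977 in the others. That is a male pattern in WT replicate 2 and a female one in the others, while the labels give no sex. Both KO libraries had the female pattern, so sex is partly mixed with genotype. The fits of the members and of the chromatin lists were also run without WT replicate 2.

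Within this set the catalytic PRC2 gene Ezh2 and the HP1 genes Cbx3 and Cbx5 fell in KO, to 0.575, 0.579 and 0.561 times the WT level, and the PRC1 gene Cbx7 rose 2.11-fold. The other PRC2 core genes Eed and Suz12, the alternative enzyme Ezh1, Bmi1, Cbx1 and Cbx8 did not pass the test. By edgeR's quasi-likelihood test, with Benjamini-Hochberg adjustment over 14140 genes and a threshold of 0.05, 3 of 10 members were lower and 1 of 10 was higher. Of all genes tested, 3.01% were called lower, 3.77% higher and 6.78% either way. The members were chosen with earlier results of these data known, so the values of all genes stand beside theirs as description only. The median log2 fold change (KO over WT) of the members was -0.37, beside 0.02 for all genes tested. Both KO libraries lay below both WT libraries for 6 members and above them for 3, beside 27.6% and 28.8% of all genes tested, so that 9 of 10 members had groups that did not overlap, against 56.5% of all genes. These calls rested on few libraries: without WT replicate 1 edgeR called none of the members (4 had an unadjusted p under 0.05), and without WT replicate 2, which leaves only libraries with a high Xist count, Cbx3 and Cbx5 were still lower while Ezh2 and Cbx7 missed the threshold. No member changed direction in any of the 11 alternatives.

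**Figure D1:**
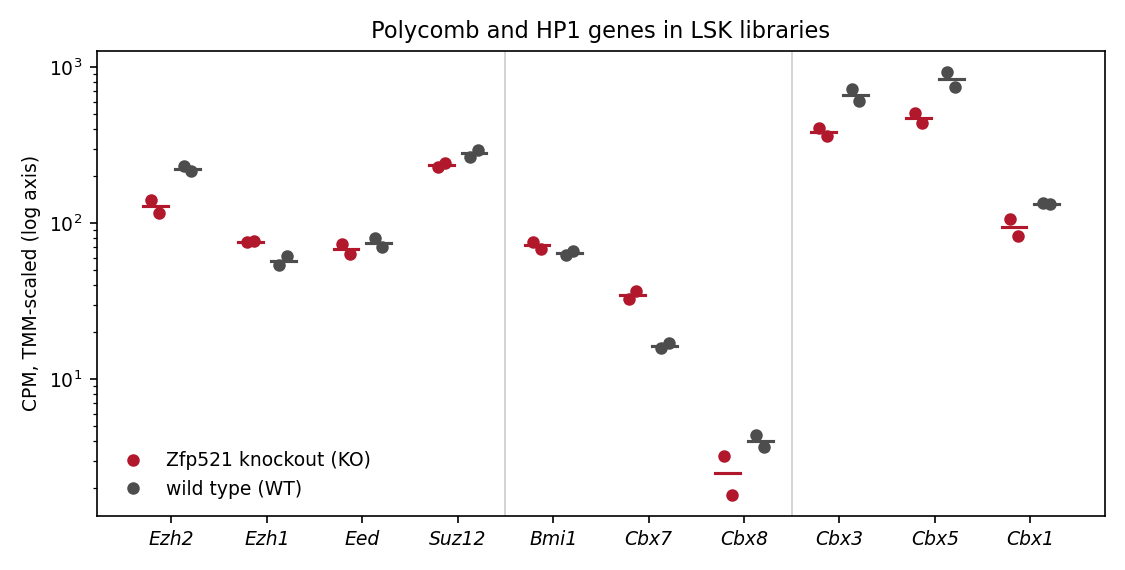
Expression of the 10 Polycomb and HP1 genes in CPM of TMM-scaled libraries on a log axis. Each point is a library, KO left of WT for each gene, and short lines are group means; vertical lines divide PRC2, PRC1 and HP1 genes. Ezh2, Cbx3 and Cbx5 lie lower in both KO libraries, Cbx7 lies higher, and the groups of Eed overlap.

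The promoter sequences of the 4 called members, and of Suz12 for comparison within PRC2, are shown so that members that moved can be read side by side. They are the 250 bases before the gene start in RefSeq's table (build GRCm38.p6, each on the strand of its gene, 5′ to 3′), which held 12 such windows for the 10 members. The windows lie at chr6:47595031-47595280 (minus strand) for Ezh2, chr6:51470366-51470615 (plus strand) for the first start of Cbx3, chr15:103239853-103240102 (minus strand) for the upstream start of Cbx5, chr15:79932647-79932896 (minus strand) for Cbx7 and chr11:79992856-79993105 (plus strand) for Suz12. Capitals mark matches on either strand to an E2F motif (TTTCCCGC, TTTGGCGC, TTTCGCGC or TTTGCCGC) or to CCAAT, the box bound by NF-Y; no matches of the different motifs overlapped in these windows.
Ezh2: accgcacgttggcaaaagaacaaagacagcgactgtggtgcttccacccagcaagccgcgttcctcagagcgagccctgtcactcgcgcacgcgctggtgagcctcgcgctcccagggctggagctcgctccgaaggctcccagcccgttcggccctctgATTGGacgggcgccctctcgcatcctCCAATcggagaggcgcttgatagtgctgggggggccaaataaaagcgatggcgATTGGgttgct
Cbx3: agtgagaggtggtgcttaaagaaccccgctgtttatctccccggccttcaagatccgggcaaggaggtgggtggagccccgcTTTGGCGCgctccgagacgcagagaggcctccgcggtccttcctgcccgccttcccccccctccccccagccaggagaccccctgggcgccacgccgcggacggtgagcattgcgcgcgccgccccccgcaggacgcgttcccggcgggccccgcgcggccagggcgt
Cbx5: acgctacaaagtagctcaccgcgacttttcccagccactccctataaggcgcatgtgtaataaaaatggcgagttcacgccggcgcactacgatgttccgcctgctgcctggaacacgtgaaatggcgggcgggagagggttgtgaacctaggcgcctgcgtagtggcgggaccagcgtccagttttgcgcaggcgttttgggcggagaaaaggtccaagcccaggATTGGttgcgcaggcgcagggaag
Cbx7: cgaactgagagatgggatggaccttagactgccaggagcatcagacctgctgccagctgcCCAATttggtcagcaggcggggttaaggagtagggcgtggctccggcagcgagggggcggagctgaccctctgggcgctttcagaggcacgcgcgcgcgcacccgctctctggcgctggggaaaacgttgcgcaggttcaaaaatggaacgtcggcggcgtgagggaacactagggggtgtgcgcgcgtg
Suz12: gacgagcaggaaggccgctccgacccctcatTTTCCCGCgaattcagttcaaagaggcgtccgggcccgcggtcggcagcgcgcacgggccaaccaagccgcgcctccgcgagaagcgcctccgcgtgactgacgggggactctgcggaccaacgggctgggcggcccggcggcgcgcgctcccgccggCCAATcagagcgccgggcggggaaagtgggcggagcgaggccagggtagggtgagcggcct

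Of the 10 members, Cbx3 and Suz12 held an E2F match, which starts 168 and 219 bases before the gene start; such a match was held by 2.16% of all gene symbols in the RefSeq table, by 3.77% of those tested here and by 4 of 28 proliferation genes (14.3%). Ezh2 held 3 CCAAT boxes, at 90, 64 and 11 bases before its start, a number reached by 2.79% of all 32851 windows. At least 1 box was found in 5 of the 12 member windows, which belong to 5 of 10 members, and in 33.8% of all windows. Of the windows shown, those of Cbx3 and Suz12 held an E2F match, and those of Ezh2, Cbx5 and Cbx7 did not. A link between these matches and the changes in KO was not tested. All 10 members had at least 1 window with at least 10 CpG dinucleotides, and their 12 windows held 7 to 37. Of all windows 37.8% held at least 10, which is a share of windows and not of genes. All windows include those of genes not tested here. Distances are from the RefSeq starts. By the GENCODE M21 annotation, used for the gene positions below, the windows of Ezh2, Cbx3 and Cbx7 lie inside the gene. These matches describe letters only.

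Ezh2 (ENSMUSG00000029687.16, chromosome 6, 47530139 to 47595341, minus strand in mm10), the main histone H3 lysine 27 methyltransferase of dividing cells, had 3103 and 2294 counts in the KO libraries and 6465 and 5322 counts in the WT libraries. That is 140 and 117 CPM in KO, against 232 and 214 CPM in WT, and both KO libraries lay below both WT libraries. Ezh2 averaged 128 ± 16.8 CPM in KO and 223 ± 12.7 CPM in WT (SD, n = 2 each), a log2 fold change of -0.80 (SE 0.16, edgeR adjusted p = 0.0152). The call was lost without WT replicate 1 (log2 fold change -0.74, edgeR adjusted p = 0.147) and without WT replicate 2 (log2 fold change -0.87, edgeR adjusted p = 0.0714).

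Ezh1 (ENSMUSG00000006920.14, chromosome 11, 101191115 to 101226463, minus strand), the alternative enzyme, lay the other way. It was at 75.3 and 76.6 CPM in KO, against 53.9 and 61.2 CPM in WT, with no overlap between the groups. The log2 fold change of 0.40 (SE 0.18, 95% interval 0.02 to 0.79) did not pass over all genes (edgeR adjusted p = 0.186).

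The balance of the 2 enzymes was lower for Ezh2 in both KO libraries. Within each library the ratio of Ezh2 reads to Ezh1 reads was 1.86 and 1.52 in KO, against 4.31 and 3.50 in WT. On the log2 scale the difference in this ratio, KO minus WT, was -1.21, and it lay between -1.36 and -1.06 when each library was left out. The exact two-sided permutation test over 4 libraries gave p = 0.333, the smallest p that 2 against 2 libraries allow. Per kilobase of exon (RPKM over the union of annotated exons), Ezh2 made up 67.5% and 62.9% of the summed level of the 2 genes in KO and 82.8% and 79.6% in WT. A ratio within a library does not depend on the scaling between libraries, and gene length cancels from its change.

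Suz12 and Eed, the non-catalytic core of PRC2, did not pass. Suz12 was at 229 and 243 CPM in KO and at 266 and 296 CPM in WT. Both KO libraries were lower, and the log2 fold change was -0.25 (SE 0.15, 95% interval -0.57 to 0.06, edgeR adjusted p = 0.308). Eed was at 73.7 and 63.6 CPM in KO, against 79.7 and 70.3 CPM in WT. Its groups overlapped, and its log2 fold change was -0.13 (SE 0.18, 95% interval -0.52 to 0.26, edgeR adjusted p = 0.699). Both intervals exclude a fall as large as the estimate for Ezh2, but the 95% interval of Ezh2 itself (-1.14 to -0.45) overlaps them. The ratio of Ezh2 reads to Suz12 reads was 0.613 and 0.481 in KO, against 0.874 and 0.724 in WT, and that of Ezh2 to Eed 1.90 and 1.83 in KO, against 2.91 and 3.05 in WT. Both ratios were lower in each KO library (exact permutation p = 0.333 each, again the smallest possible).

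Other PRC2 subunits were taken from a list of 10 genes, of which 9 were tested. Their median log2 fold change was -0.31, and 1 of them passed. It was the X-linked gene Rbbp7, a histone-binding subunit that PRC2 shares with other complexes, which was lower, at 207 and 168 CPM in KO, against 346 and 304 CPM in WT (log2 fold change -0.80, edgeR adjusted p = 0.0155). In edgeR the adjusted p of Rbbp7 was 0.161 when WT replicate 1 was left out and 0.0582 when WT replicate 2 was. Its relative Rbbp4 (log2 fold change -0.44) and the accessory subunits Jarid2 (0.12), Aebp2 (-0.30), Mtf2 (-0.31), Phf1 (0.72) and Phf19 (-0.43) did not pass. Neither did E130012A19Rik (-0.71) or Lcor. Lcor was at 41.9 and 54.6 CPM in KO and 27.9 and 29.5 CPM in WT (log2 fold change 0.75, edgeR adjusted p = 0.0638). With upper quartile factors, DESeq2, no filter on low counts or the stricter filter, 1 gene of this list was called higher.

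Rbbp7 was also among the 5 genes whose profile over the 4 libraries was nearest to that of Ezh2. Nearness was the root mean square distance of centred log2 CPM, over 7195 genes that averaged 20 CPM or more. The others were the mitochondrial ribosomal protein gene Mrpl36, the signalling adaptor Dok2, the kinase Mast2 and the ubiquitin-conjugating enzyme Ube2l3, at distances of 0.014 to 0.028 on the log2 scale. Of the members, Cbx3 (distance 0.065, rank 55) and Cbx5 (distance 0.072, rank 75) came closest to Ezh2, and Cbx7 was far from it (distance 0.954, rank 7033). With 4 libraries many genes share such a profile, so this is a description.

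Among the PRC1 members, Cbx7 rose. Cbx7 (ENSMUSG00000053411.16, chromosome 15, 79915807 to 79971119, minus strand), a reader of the PRC2 mark, had 724 and 722 counts in the KO libraries and 439 and 424 counts in the WT libraries. It was at 32.7 and 36.7 CPM in KO, against 15.8 and 17.1 CPM in WT, so the lowest KO library lay well above the highest WT library. Cbx7 averaged 34.7 ± 2.79 CPM in KO and 16.4 ± 0.919 CPM in WT (SD, n = 2 each), a log2 fold change of 1.08 (SE 0.24, edgeR adjusted p = 0.0253). Its log2 fold change lay between 0.99 and 1.16 in all 11 alternatives. The call was lost when WT replicate 1 (edgeR adjusted p = 0.21), WT replicate 2 (0.124) or KO replicate 2 (0.0545) was left out. Cbx7 overlaps 100 bases of Apobec3 on the other strand, and without a stated strand setting reads of that overlap cannot be told apart.

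Cbx8, another PRC1 reader of the same mark, was the least expressed member. It had 71 and 36 counts in KO and 122 and 92 counts in WT, or 3.21 and 1.83 CPM in KO, against 4.38 and 3.70 CPM in WT. Both KO libraries were lower, but the log2 fold change of -0.68 had an SE of 0.57 and a 95% interval from -1.93 to 0.57, which includes no change and a fall larger than that of Ezh2 (edgeR adjusted p = 0.494). Bmi1, which stabilises the PRC1 ubiquitin ligase, was at 76.2 and 68.0 CPM in KO, against 62.6 and 66.7 CPM in WT. The groups of Bmi1 did not overlap but lay close together, with a log2 fold change of 0.16 (SE 0.18, 95% interval -0.23 to 0.54, edgeR adjusted p = 0.619).

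PRC1 Cbx proteins compete for the same place in the complex, so the levels of Cbx2, Cbx6, Cbx7 and Cbx8 were compared per kilobase of exon. The shares below are of these 4 genes and not of all PRC1 Cbx genes. Cbx7 made up 25.4% and 35.3% of the summed RPKM of these 4 genes in the KO libraries, against 10.5% and 13.3% in the WT libraries. In WT its mean level of 2.53 RPKM ranked below Cbx2 (11.7 RPKM) and Cbx6 (6.12 RPKM) and above Cbx8 (1.10 RPKM). In KO its mean level was 5.35 RPKM, beside 7.87 RPKM for Cbx2, 4.05 RPKM for Cbx6 and 0.686 RPKM for Cbx8. In KO both libraries of Cbx7 (5.05 and 5.66 RPKM) lay above those of Cbx6 (4.02 and 4.08 RPKM). This order depended on the gene length used. Over the longest transcript, Cbx7 (5.4 and 6.06 RPKM) and Cbx6 (5.43 and 5.51 RPKM) overlapped in KO. By the union of exons, Cbx2 (5.81 RPKM) was close to Cbx7 in KO replicate 2. Cbx2 and Cbx6 had log2 fold changes of -0.58 and -0.60 and did not pass (edgeR adjusted p = 0.216 and 0.0736). The ratio of Cbx2 reads to Cbx7 reads was 1.29 and 0.675 in KO and 3.66 and 2.47 in WT (exact permutation p = 0.333, the smallest possible).

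**Figure D2:**
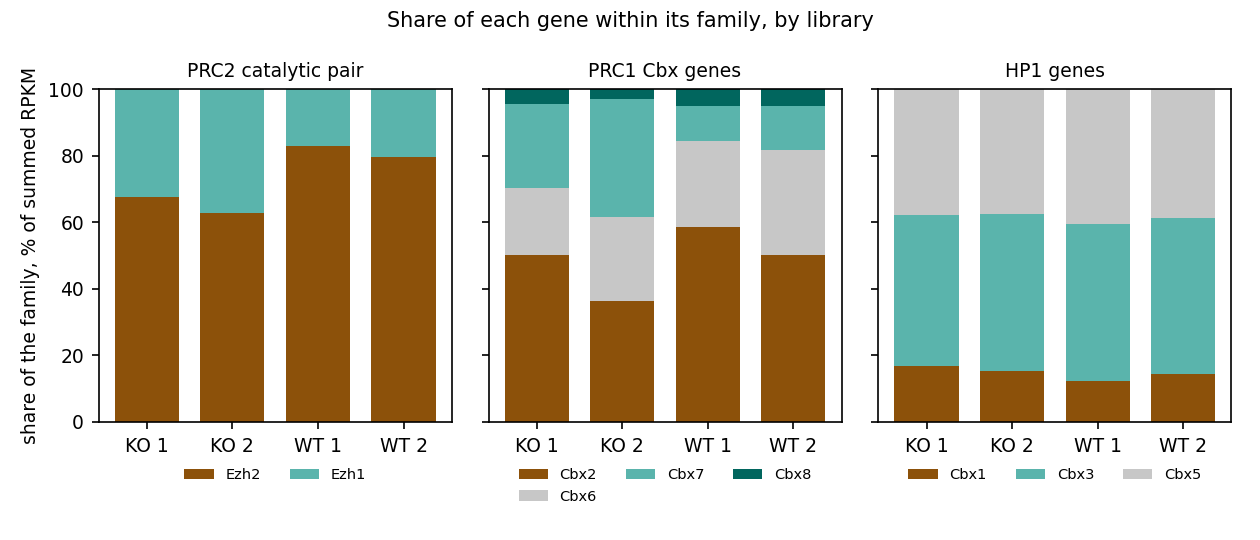
Share of each gene in the summed RPKM of the genes shown for its family, in percent, for each library, with KO left of WT. Ezh2 takes 62.9% to 67.5% of the catalytic pair in KO and 79.6% to 82.8% in WT, Cbx7 takes 25.4% to 35.3% of the 4 PRC1 Cbx genes shown in KO and 10.5% to 13.3% in WT, and Cbx3 takes 45.3% to 47.2% of the HP1 genes in KO and 46.8% to 47.2% in WT.

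Of 23 other PRC1 genes tested in edgeR none passed, 3 had an unadjusted p under 0.05, and DESeq2 called 1; their median log2 fold change was -0.20. The ubiquitin ligase genes Rnf2 (55.9 and 70.0 CPM in KO, 64.1 and 80.7 CPM in WT) and Ring1 (27.9 and 23.0 CPM in KO, 26.5 and 29.3 CPM in WT) had overlapping groups. The smallest p was that of Cbx6, followed by Phc3, a Polyhomeotic scaffold subunit, with a log2 fold change of 0.41 (edgeR adjusted p = 0.117). Pcgf1, the Bmi1 relative of a variant complex, was at 5.52 and 15.3 CPM in KO and at 3.92 and 5.03 CPM in WT, where KO replicate 2 alone stood high.

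All HP1 genes were lower in both KO libraries, and Cbx3 and Cbx5 passed the test. Cbx5 (ENSMUSG00000009575.14, chromosome 15, 103191544 to 103239816, minus strand), which encodes HP1 alpha of pericentromeric heterochromatin, had 11219 and 8549 counts in KO and 25868 and 18601 counts in WT, the highest counts of any member. It was at 507 and 434 CPM in KO, against 929 and 749 CPM in WT. Cbx5 averaged 471 ± 51.5 CPM in KO and 839 ± 128 CPM in WT (SD, n = 2 each), a log2 fold change of -0.83 (SE 0.15, edgeR adjusted p = 0.0114).

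Cbx3 (ENSMUSG00000029836.15, chromosome 6, 51470360 to 51483704, plus strand), which encodes HP1 gamma, a form also found along active genes, had 8927 and 7125 counts in KO and 20085 and 14956 counts in WT. It was at 404 and 362 CPM in KO, against 722 and 602 CPM in WT, with no overlap. Cbx3 averaged 383 ± 29.4 CPM in KO and 662 ± 84.4 CPM in WT (SD, n = 2 each), a log2 fold change of -0.79 (SE 0.15, edgeR adjusted p = 0.0117). The annotation lists 8 processed pseudogenes of Cbx3, so reads of near-identical copies could have been lost or misplaced. Without WT replicate 1 both genes missed the threshold, with log2 fold changes of -0.67 for Cbx5 (edgeR adjusted p = 0.127) and -0.66 for Cbx3 (edgeR adjusted p = 0.143).

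Cbx1, which encodes HP1 beta, was at 107 and 83.0 CPM in KO, against 134 and 133 CPM in WT. The KO libraries were both lower and differed more from each other than the WT libraries did. The log2 fold change of -0.49 (SE 0.17, 95% interval -0.87 to -0.12) did not pass (edgeR adjusted p = 0.105), but it did without KO replicate 1 (log2 fold change -0.69, edgeR adjusted p = 0.0161). Per kilobase of exon the order of mean levels was Cbx3 (63.9 RPKM in KO, 110 RPKM in WT), Cbx5 (52.3 RPKM in KO, 93.2 RPKM in WT) and Cbx1 (22.2 RPKM in KO, 31.2 RPKM in WT). In WT the libraries of Cbx5 (103 and 83.1 RPKM) and Cbx3 (120 and 100 RPKM) overlapped. Over the longest transcript they did not, with Cbx5 at 106 and 85.1 RPKM and Cbx3 at 247 and 206 RPKM in WT. By the union of exons, Cbx3 made up 45.3% and 47.2% of the summed HP1 level in KO and 47.2% and 46.8% in WT. The ratio of Cbx5 reads to Cbx1 reads was 4.75 and 5.23 in KO, against 6.93 and 5.65 in WT, and that of Cbx3 to Cbx1 3.78 and 4.36 in KO, against 5.38 and 4.54 in WT. Both ratios were lower in each KO library (exact permutation p = 0.333 each, the smallest possible).

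Cbx3 and Cbx5 each start head to head with a gene for an RNA-binding protein of the hnRNP family, with 466 bases between the annotated starts of Cbx3 and Hnrnpa2b1 and 616 bases between those of Cbx5 and Hnrnpa1. Hnrnpa2b1 was at 545 and 457 CPM in KO, against 698 and 570 CPM in WT (log2 fold change -0.34, edgeR adjusted p = 0.2). Hnrnpa1 was at 118 and 118 CPM in KO, against 116 and 102 CPM in WT (log2 fold change 0.12, edgeR adjusted p = 0.67). Neither neighbour passed the test. These neighbours were looked up after the values of Cbx3 and Cbx5 were known, and the difference between each gene and its neighbour was not tested.

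**Figure D3:**
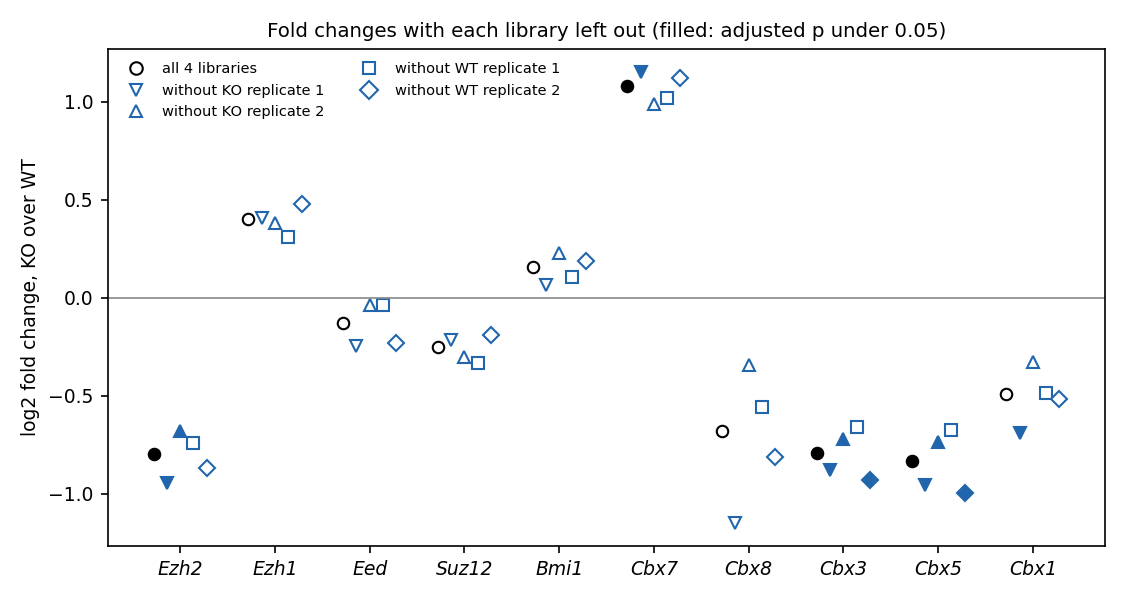
Log2 fold change (KO over WT) of each member with all 4 libraries and with each library left out. Filled symbols passed an adjusted p of 0.05 in edgeR, open symbols did not. The direction held for all 10 members, and no member passed without WT replicate 1.

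Genes that act against or beside these complexes were compared with the same fit. Of 7 tested Polycomb antagonists, which remove the PRC1 or PRC2 marks or belong to such complexes, 1 was lower. It was Foxk2, a forkhead factor that recruits the deubiquitinase Bap1, at 42.4 and 26.4 CPM in KO, against 79.5 and 66.1 CPM in WT (log2 fold change -1.08, edgeR adjusted p = 0.0237; 0.18 without WT replicate 1 and 0.0645 without WT replicate 2). The histone H3 lysine 27 demethylase Kdm6a, an X-linked gene, was at 212 and 230 CPM in KO, against 171 and 111 CPM in WT, with the lowest value in WT replicate 2. Its log2 fold change was 0.65 (edgeR adjusted p = 0.0712). Kdm6a passed the threshold in 6 of 11 alternatives, with adjusted p from 0.000248 to 0.453. Its log2 fold change was 0.99 when WT replicate 1 was left out (edgeR adjusted p = 0.0427) and 0.35 when WT replicate 2 was (edgeR adjusted p = 0.453).

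Of 24 genes of histone H3 lysine 9 methylation and HP1 partners, 2 were higher, and the list's median log2 fold change was 0.04. They were Adnp, a zinc finger partner of HP1, at 6.60 and 9.86 CPM in KO and 2.19 and 1.73 CPM in WT (log2 fold change 2.06, edgeR adjusted p = 0.0293), and the histone H4 methyltransferase gene Suv420h1 (Kmt5b), at 151 and 182 CPM in KO and 111 and 103 CPM in WT (log2 fold change 0.64, edgeR adjusted p = 0.0384). Both calls were lost when WT replicate 1, WT replicate 2 or KO replicate 2 was left out, where edgeR's adjusted p was 0.125, 0.149 and 0.0907 for Adnp and 0.226, 0.254 and 0.0976 for Suv420h1. The methyltransferase gene Suv39h1, whose mark HP1 binds, was at 49.9 and 31.7 CPM in KO and 63.4 and 64.7 CPM in WT (log2 fold change -0.65, edgeR adjusted p = 0.106). Of 14 trithorax group genes, which counteract Polycomb silencing, Kmt2c was higher, at 518 and 582 CPM in KO and 338 and 376 CPM in WT (log2 fold change 0.62, edgeR adjusted p = 0.0261; 0.275 without WT replicate 1 and 0.123 without WT replicate 2). Over these 5 lists, 3 of 77 tested genes (3.90%) were higher and 2 (2.60%) lower, near the 3.77% and 3.01% of all genes tested.

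Most genes that Polycomb silences in many tissues were near the floor. Of 24 such genes 4 had enough reads for the test, while 9 were without a read in all libraries. None of the 4 passed in edgeR, 2 of them, Nkx2-1 and Hmga2, had an unadjusted p under 0.05, and DESeq2 called 1. Cdkn2a, the cell cycle inhibitor locus that Bmi1 represses, had 1 and 0 counts in KO and none in WT, and Cdkn2b had 3 and 0 counts in KO and 1 and 0 counts in WT. Gata6, a factor of endoderm and heart, had 3 and 23 counts in KO and none in WT, too few to be tested. Pax6, also not tested, went the other way, with 3 and 6 counts in KO and 13 and 9 counts in WT. Of the 4 tested genes, 2 had a positive and 2 a negative log2 fold change. Nkx2-1, a lung and thyroid factor, was at 4.84 and 4.83 CPM in KO and 1.19 and 2.13 CPM in WT (log2 fold change 1.54, edgeR adjusted p = 0.132). The fetal stem cell gene Hmga2, which is well expressed here, was at 174 and 163 CPM in KO and 219 and 246 CPM in WT (log2 fold change -0.47, edgeR adjusted p = 0.0816).

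**Figure D4:**
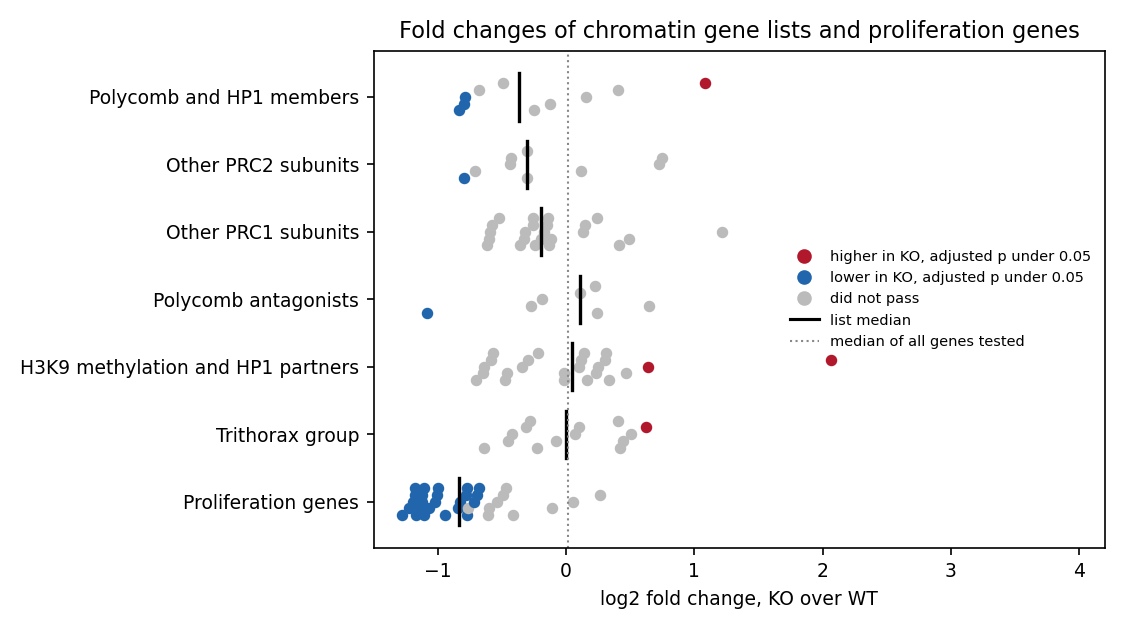
Log2 fold change (KO over WT) of every tested gene in each list, coloured by the test, with the list median as a black bar and the median of all genes tested as a dotted line. Called genes are 3 lower and 1 higher among the Polycomb and HP1 members, 3 higher and 2 lower in the 5 other chromatin lists, and 24 lower among 34 proliferation genes. Over all genes tested, 3.01% were called lower and 3.77% higher.

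Proliferation genes moved with Ezh2, Cbx3 and Cbx5. Of 34 listed genes of DNA replication and mitosis, 24 were lower, beside 3.01% of all genes tested. Their median log2 fold change was -0.84, and their summed level was 4004 to 4333 CPM in KO and 7107 to 7139 CPM in WT. Top2a, the topoisomerase of dividing cells, was at 412 and 473 CPM in KO and 973 and 953 CPM in WT. Leaving out WT replicate 1 left 8 proliferation genes called lower, and leaving out WT replicate 2 left 9. The part of proliferation in the fall of Ezh2, Cbx3 and Cbx5 was not tested, and in bulk RNA fewer cells of a type and less RNA per cell cannot be told apart.

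Marker lists of other cell types moved as well. Over all genes tested, 3.77% were called higher and 3.01% lower. Of 10 dendritic cell markers 7 were higher, with summed levels of 858 to 1045 CPM in KO and 136 CPM in both WT libraries, led by H2-Aa, H2-Ab1 and Cd74. Of 8 mast cell markers 6 were higher (272 to 407 CPM in KO, 151 to 153 CPM in WT), and of 9 neutrophil markers 6 were higher (815 to 1074 CPM in KO, 392 to 555 CPM in WT). Of 10 B cell markers 8 were lower (77.7 to 106 CPM in KO, 422 to 519 CPM in WT). In edgeR none of 6 tested erythroblast markers or 5 tested T and NK cell markers passed (4 and 2 had an unadjusted p under 0.05, and DESeq2 called 2 and 1), with sums of 735 to 1148 CPM and 77.5 to 77.7 CPM in KO and 700 to 829 CPM and 88.0 to 92.0 CPM in WT. The globin gene Hba-a1 had no read, and the T cell gene Cd3e was at 0.995 CPM or less, but other genes of these lists were well read. Alas2 of the erythroblast list had 1158 and 810 counts in KO and 160 and 732 counts in WT. In the T and NK cell list, Klrb1c had 261 and 514 counts in KO and 134 and 271 counts in WT. Nkg7 of that list went the other way, with 851 and 468 counts in KO and 1590 and 1243 counts in WT. Of the 8 LSK markers, Cd34 was lower and 7 did not pass. The part of these cell types in the values of Cbx7, Ezh2, Cbx3 and Cbx5 was not tested.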

How the data were processed

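The authors deposited raw read counts per gene symbol for 2 KO and 2 WT libraries, each grouped by its label. Per the labels' protocols, NuGEN Ovation Ultralow libraries (20 ng of total RNA as input) were sequenced on an Illumina NextSeq for 76 cycles. Per the submitters' processing notes, TopHat2 2.1.1, SAMtools 1.5, Picard 2.9.4, HTSeq 0.8.0 and build mm10 were used; the sources used here give no annotation, strand setting or duplicate handling. Reads of overlapping or near-identical genes are uncertain.

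The test used edgeR 4.0.16 (R 4.3.3) with TMM factors, filterByExpr (minimum count 10, minimum total 15), the quasi-likelihood test of KO over WT on all 14140 genes that passed, and Benjamini-Hochberg adjustment at 0.05. SE is the fold change over the root of F, and intervals are 95%. Lengths and positions came from GENCODE M21 (mm10). The steps were tested on simulated data. Alternatives were RLE and upper quartile factors, DESeq2 1.42.0, other filters, Rn45s left out, each library left out, and replicate number as a block. Genes named are all members, Zfp521, list members that passed or had the smallest p, marker genes and the 5 nearest to Ezh2; others were chosen after values were seen, as were the promoter motifs. The members and lists were chosen with earlier results of these data known. A gene of the PRC1 list is counted but not reported here by name.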

Additional observations from a re-analysis of the deposited data

How the results depend on the processing

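Of 110 alternative values of the 10 members over 11 alternatives, none changed direction, 100 stayed on the same side of the threshold, 7 lost the call and 3 gained it; the losses all came from leaving out a library. With each library left out, 0 to 1 members were higher and 0 to 4 lower, all genes called numbered 160 to 997 higher and 95 to 1161 lower, the 5 other chromatin lists had 0 to 10 higher and 0 to 13 lower, and the Ezh2 to Ezh1 ratio kept its direction. Without WT replicate 1 edgeR called no member (4 had an unadjusted p under 0.05), while DESeq2 on all 4 libraries called 3 lower and 1 higher. The counts over all genes rose with DESeq2 (854 higher, 817 lower), with no filter on low counts (1056 higher, 987 lower) and with the replicate block (1312 higher, 1314 lower). The chromatin lists then had 7 higher and 7 lower with DESeq2, 8 higher and 8 lower with no filter, 10 higher and 12 lower with the replicate block, and 7 higher with upper quartile factors, under which the median over all genes was 0.10; the cause was not tested. The labels do not say whether replicate numbers pair the samples. The replicate differences of KO and WT had a correlation of 0.076 across genes, which cannot settle this. The block, used as an alternative, also called Cbx1 lower (edgeR adjusted p = 0.0136), giving 4 lower and 1 higher members. Of 24 silenced genes, 20 had too few reads to be tested.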
